A study of Bos taurus with 21 samples.

Results

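Endometrium, the lining of the uterus, changes its transcription when an embryo is present, and 51 transcripts that were moderately higher in pregnant than in cyclic heifers on day 16 are described here. They were chosen from 28054 bovine Ensembl transcript identifiers by the day 16 values themselves. The levels were counts per 1000000 counted reads of a heifer (CPM), and L stands for log2(CPM + 1). A transcript was taken when its mean over 20 heifers was at least 5 CPM, when the mean L of the pregnant day 16 heifers exceeded that of the cyclic day 16 heifers by at least 1 and by less than 2, and when the lowest of the 5 pregnant heifers lay above the highest of the 5 cyclic heifers. The minimum of 5 CPM was met by 13646 transcripts.

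The 4 groups held 5 cross-bred beef heifers each, predominantly Charolais and Limousin crosses: cyclic heifers on day 13 or day 16 of the oestrous cycle, which had not been inseminated, and inseminated heifers on day 13 or day 16 of pregnancy. All received intravaginal progesterone (CIDR) and an analog of prostaglandin F2α to align their cycles, and an inseminated heifer was used only when a conceptus at the appropriate stage had been flushed from the uterus. Mostly intercaruncular tissue, which lies between the sites of placental attachment, was sampled, from the horn ipsilateral to the ovary with the corpus luteum. The heifers carry the numbers of the labels, and their ages are not given in them.

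Around day 13 the bovine conceptus begins to elongate, and by day 16 it secretes interferon tau, the signal that keeps the corpus luteum from regressing. Interferon tau acts on receptors of the endometrium and switches on a broad set of interferon-stimulated genes through STAT and IRF transcription factors. In the absence of a conceptus the endometrium of this stage moves toward the release of prostaglandin F2α that ends the cycle.

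None of the 51 identifiers could be paired with a gene symbol from the RefSeq table at hand, so no gene, pathway, marker of a cell type or sequence is given for them. They are called by their rank of mean CPM in the pregnant day 16 heifers, from 1 (most abundant) to 51, and 2 are named by identifier. Every member differed from all other identifiers in its counts. For the same reason the labelled tissue was not checked against its markers. In samples of whole tissue, a change in the number of cells of a type and a change in RNA per cell cannot be told apart.

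Total counts were between 1256870 and 3764342 per heifer, and the shallowest, pregnant day 16 heifer 1, also had the highest level of these transcripts. A floor of 3 counts was worth 0.797 CPM in the deepest and 2.39 CPM in the shallowest heifer, and every member had at least 3 counts in every heifer. Heifer 12 had 2 libraries, of which library 2 was left out. Over the 13646 transcripts, the median absolute difference of L between library 2 and the library labelled heifer 19 was 0.171, the smallest of 210 pairs of libraries, against 0.234 between both libraries labelled heifer 12, which ranked 33. Library 2 was also in the pairs ranked 2 and 3, with cyclic day 16 heifer 17 (0.187) and pregnant day 16 heifer 4 (0.192). It thus lay close to libraries of other heifers too. Which label is right was not tested. The main values that used heifers 12 and 19 are also given without each of them.

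At day 16 the 51 transcripts together took 0.606% of all counts in pregnant heifer 1, 0.548% in heifer 12, 0.525% in heifer 6, 0.401% in heifer 19 and 0.397% in heifer 4. In the cyclic day 16 heifers they took 0.174% in heifer 15, 0.176% in heifer 16, 0.174% in heifer 17, 0.169% in heifer 3 and 0.181% in heifer 7. The pregnant values thus fell into a higher trio and a lower pair, while the cyclic values lay close together. The means were 0.496% ± 0.0930 (SD, n = 5) for pregnancy and 0.175% ± 0.00429 (n = 5) for the cycle, a ratio of 2.84. The ratio was 2.76 without heifer 12 and 2.97 without heifer 19. By the same rule, 55 transcripts were found without heifer 12 and 62 without heifer 19. These heifers chose the members, also through the requirement that the groups not overlap, so the values describe the choice and test nothing.

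**Figure D1:**
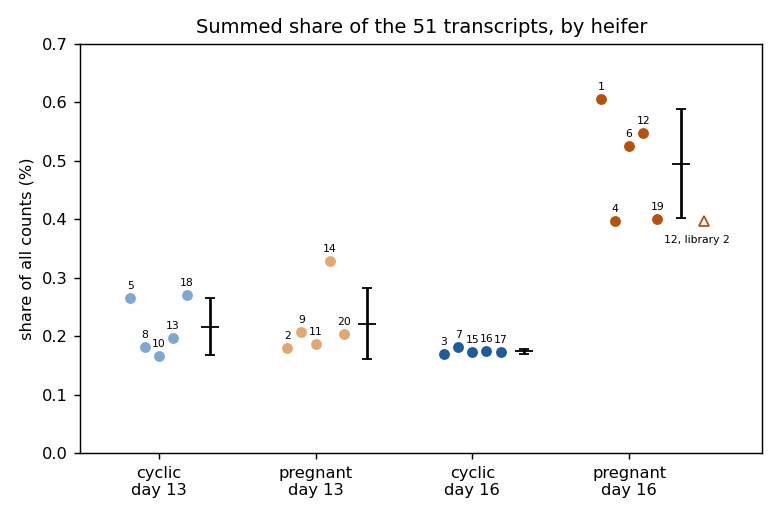
Share of all counts taken by the 51 transcripts (vertical axis, %) in each heifer, by group (horizontal axis). Filled points are heifers with their numbers, the open triangle is library 2 labelled heifer 12, and bars are the mean and SD of 5 heifers. The pregnant day 16 heifers lie between 0.397% and 0.606%, above every other heifer, of which pregnant day 13 heifer 14 is the highest at 0.329%.

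By rank, the members covered most of the range of abundance of the 13646 transcripts that met the minimum, short of the most abundant. Their mean CPM in pregnant day 16 heifers ran from 9.09 to 517.9 with a median of 58.6, against a median of 33.5 over all 13646 transcripts in the same heifers. In cyclic day 16 heifers the members' median was 19.9 CPM, with a range of 3.10 to 202.1, against 33.8 over all transcripts. By mean CPM over the 20 heifers the highest member was place 454 and the lowest place 13491 of 13646. Of the 51, 16 had at least 100 CPM in pregnant day 16 heifers and 10 had under 20 CPM. The 10 most abundant held 56.6% of the summed mean CPM of the members in pregnant day 16 heifers. The members thus ran from abundant transcripts down to those near the minimum, and a few of them carried most of the summed level.

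**Figure D2:**
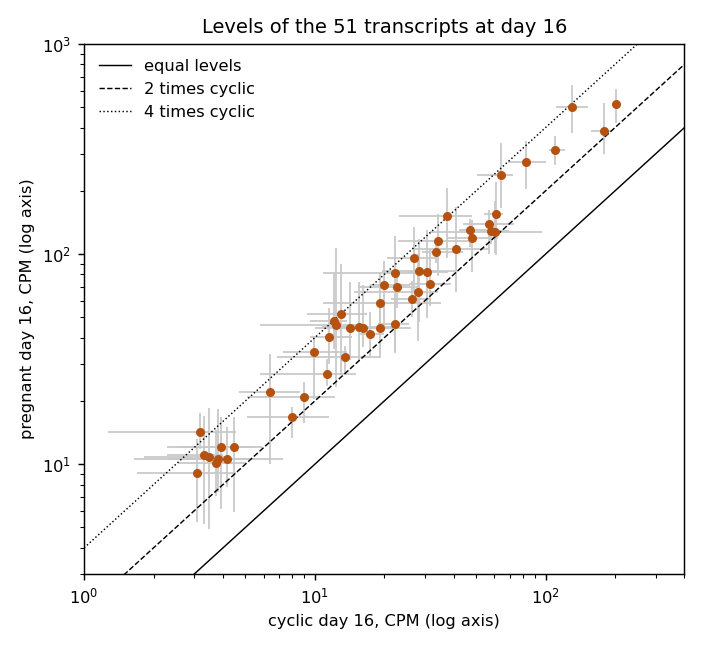
Mean CPM of each of the 51 transcripts in cyclic (horizontal, log axis) and pregnant (vertical, log axis) day 16 heifers, 5 heifers in each, with grey lines from the lowest to the highest heifer. The points lie near or between the lines of 2 and 4 times the cyclic level, with ratios of mean CPM from 2.09 to 4.47, from the rarest to the most abundant.

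The size of the day 16 difference had a median of 1.36 in L (range 1.00 to 1.97; 1.37 without heifer 12 and 1.49 without heifer 19), and the ratio of mean CPM had a median of 2.83. The members nearest to the limits had differences of 1.00 and 1.97. Just outside lay transcripts with non-overlapping groups at 0.99 and 2.02. Just above the minimum level was a member with 5.33 CPM over 20 heifers, and 13 transcripts met all but that minimum, the highest of them at 4.56 CPM. A further 38 transcripts had differences in the same range but overlapping groups. The lowest pregnant heifer was between 1.01 and 2.61 times the highest cyclic heifer (median 1.47), and was at least 2 times it in 9 members and under 1.2 times it in 13. Member 44 was the closest to overlap, with 5.93 CPM in pregnant heifer 4 and 5.90 CPM in cyclic heifer 3.

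Of the 51 members, 43 had an adjusted p under 0.05 as higher in pregnant heifers at day 16 in edgeR's quasi-likelihood test with Benjamini-Hochberg adjustment over 14826 transcripts, where 0.931% of all transcripts tested were called as higher and 0.0270% as lower. The count was 39 without heifer 12 and 45 without heifer 19. Groups that did not overlap in this direction were found in 1.49% of the 13646 transcripts. These shares concern the contrast that chose the members, so nothing is read from them.

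The most abundant member, ENSBTAT00000028598, had 613 CPM in pregnant day 16 heifer 1, 606 in heifer 12, 436 in heifer 19, 422 in heifer 4 and 513 in heifer 6. In the cyclic day 16 heifers it had 207 CPM in heifer 15, 201 in heifer 16, 212 in heifer 17, 195 in heifer 3 and 195 in heifer 7. On day 13 it had 206 to 297 CPM in the 5 cyclic heifers (median 244) and 207 to 371 CPM in the 5 pregnant heifers (median 240). Every pregnant day 16 heifer lay above all 15 other heifers, and the groups of day 13 overlapped. The pregnant means were 517.9 ± 90.5 CPM (SD, n = 5) on day 16 and 267.0 ± 64.3 (n = 5) on day 13. The cyclic means were 202.1 ± 7.62 CPM (n = 5) on day 16 and 255.0 ± 39.5 (n = 5) on day 13. Between the days the edgeR log2 fold change was 0.96 (SE 0.15) in pregnant heifers, or 0.90 without heifer 12 and 1.02 without heifer 19. No p is given for it, since the rule required the pregnant day 16 heifers to be high. In cyclic heifers it was -0.34 (SE 0.15).

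ENSBTAT00000018901, member 26, had the largest difference between days in cyclic heifers. It had 30.4 CPM in cyclic day 13 heifer 10, 41.2 in heifer 13, 42.5 in heifer 18, 56.4 in heifer 5 and 41.7 in heifer 8, and on day 16 it had 10.9 CPM in cyclic heifer 15, 17.8 in heifer 16, 35.3 in heifer 17, 14.1 in heifer 3 and 18.2 in heifer 7. In pregnant heifers it had 37.2 CPM in heifer 11, 20.6 in heifer 14, 12.5 in heifer 2, 21.6 in heifer 20 and 43.0 in heifer 9 on day 13, and 73.2 CPM in heifer 1, 82.0 in heifer 12, 50.03 in heifer 19, 41.5 in heifer 4 and 46.3 in heifer 6 on day 16. The cyclic groups overlapped only through day 16 heifer 17, and the pregnant groups overlapped only through day 13 heifer 9. The change between days in cyclic heifers did not pass the test (edgeR log2 fold change -1.15, SE 0.30, adjusted p = 0.0563). The rule required the cyclic day 16 heifers to be low, and this member was picked for its cyclic difference. Its p-values in this contrast are therefore a description and no independent support. Over the 16 alternatives its adjusted p ran from 0.00975, without cyclic day 16 heifer 17, to 0.172, with the six-digit code of the deposited tables in the edgeR model. It was under 0.05 in 4 of them: without heifer 17, with DESeq2 (0.0135), with both libraries of heifer 12 summed (0.0415) and without cyclic day 13 heifer 10 (0.0493).

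**Figure D3:**
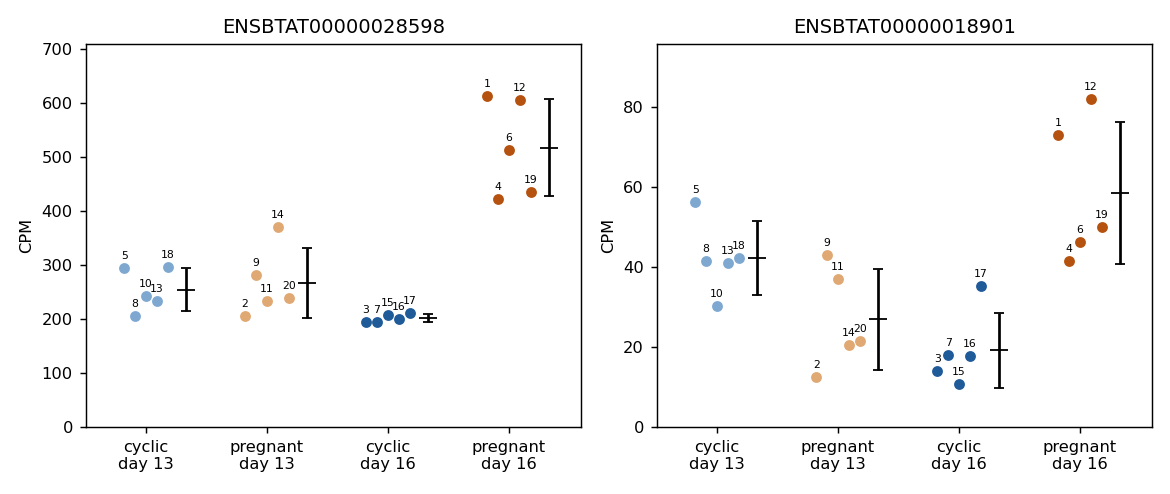
CPM (vertical axes) of the most abundant member and of member 26 in each heifer, by group (horizontal axes). Points are heifers with their numbers, and bars are the mean and SD of 5 heifers. For ENSBTAT00000028598 the cyclic day 16 mean of 202.1 CPM lies below the day 13 means, 255.0 in cyclic and 267.0 in pregnant heifers. For ENSBTAT00000018901 the cyclic day 13 mean is 42.4 CPM. It lies nearer to the pregnant day 16 mean of 58.6 than the pregnant day 13 mean of 27.0 does.

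The day 13 heifers had no part in the differences that chose the members, apart from the minimum mean over 20 heifers, and they allowed a test. No member differed between pregnant and cyclic heifers on day 13 in edgeR, in which 0% of the 14826 transcripts were called in either direction. At an unadjusted edgeR p under 0.05, 1 member was higher (member 50) and 1 was lower (member 18). Over the 14826 transcripts, 970 had such a p in either direction, so these members are not set apart by it. DESeq2 called 0 members and 0 of all transcripts. The edgeR adjusted p of the members was at least 0.727. In none of the 51 did the pregnant and cyclic day 13 heifers separate, where 0.264% of the 13646 transcripts separated as higher and 0.322% as lower.

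The interval of the day 13 difference limits what could have been missed. The 95% interval from the edgeR fit held 0 in 49 of the 51 members, lay under a 2-fold increase in 38 and lay within a 2-fold change in either direction in 33. For ENSBTAT00000028598 the day 13 log2 fold change was 0.09 (95% interval -0.22 to 0.40, edgeR adjusted p = 0.868), and it was -0.08 without pregnant day 13 heifer 14. For ENSBTAT00000018901 it was -0.60 (-1.21 to 0.01, edgeR adjusted p = 0.727). The median SE was 0.28 for the members against 0.20 over all transcripts tested, so that smaller differences on day 13 were not detectable at this number of heifers.

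On day 13 the members took 0.167% of the counts in cyclic heifer 10, 0.197% in heifer 13, 0.271% in heifer 18, 0.266% in heifer 5 and 0.182% in heifer 8. In the pregnant day 13 heifers they took 0.188% in heifer 11, 0.329% in heifer 14, 0.180% in heifer 2, 0.205% in heifer 20 and 0.208% in heifer 9. Heifer 14 stood above all other day 13 heifers and below every pregnant day 16 heifer. It was the highest pregnant day 13 heifer in 32 of the 51 members, and in 18 it lay above the lowest pregnant day 16 heifer. The means of the share were 0.222% ± 0.0609 (SD, n = 5) in pregnant and 0.217% ± 0.0487 (n = 5) in cyclic day 13 heifers. The median difference of mean L, pregnant minus cyclic on day 13, was 0.04, with 29 members above and 22 below 0. Over the 13646 transcripts the median was -0.01, with 47.5% above and 52.5% below 0. The direction of the members' median turned when single heifers were left out. It was -0.04 without cyclic heifer 10, with 22 members above and 29 below 0, -0.03 without pregnant heifer 14, with 21 above and 30 below, and -0.01 without cyclic heifer 8. With the heifers of 1 of the codes described below (code B) left out, it was 0.27, with 37 above and 14 below.

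**Figure D4:**
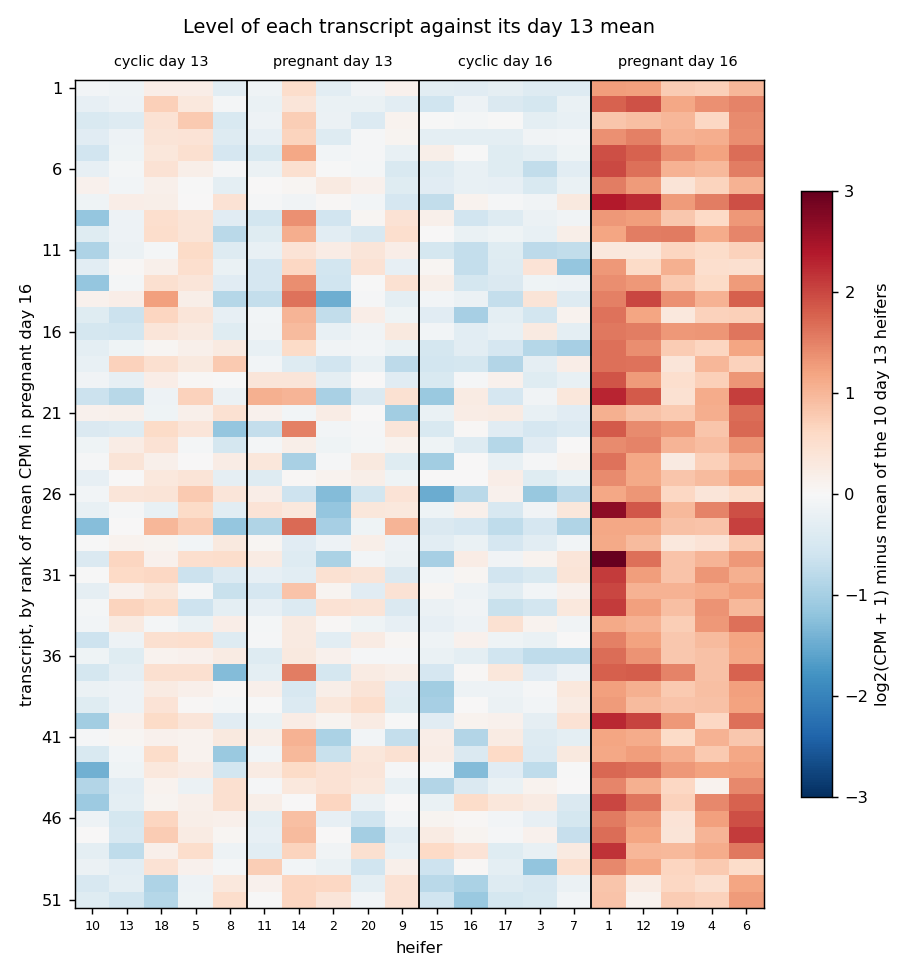
Level of each of the 51 transcripts (rows, by rank of mean CPM in pregnant day 16) in each of the 20 heifers (columns, by group), as L minus the mean L of the 10 day 13 heifers. Colour runs from 3 below (blue) to 3 above (red). The pregnant day 16 columns are red in nearly all rows, and heifer 1 is the darkest in 32 of them. Among the day 13 columns, heifer 14 is red in many rows and heifers 18 and 5 are lightly red.

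For each member the day 16 difference in mean L is the sum of 3 parts: day 16 minus day 13 in pregnant heifers, day 13 minus day 16 in cyclic heifers, and pregnant minus cyclic on day 13. The day 16 heifers enter the first 2 parts and also chose the members, so the split is a description. The pregnant part was the greatest in 47 of the 51 members, the cyclic part in 2 (members 11 and 26) and the day 13 part in 2 (members 50 and 51). The pregnant part made up a median of 84.6% of the difference (range 27.5% to 111.8%), the cyclic part 14.4% (-24.4% to 73.2%) and the day 13 part 2.86% (-55.0% to 49.95%). The pregnant part was the greatest in 48 members both without heifer 12 and without heifer 19, with medians of 84.0% and 85.4%. Most of the day 16 difference thus lay in higher levels of pregnant heifers on day 16 than on day 13.

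Between day 13 and day 16 in pregnant heifers, all 51 members had higher means on day 16, by a median of 1.18 in L (range 0.31 to 2.01). Over the 13646 transcripts the median was -0.0003, with 49.96% higher on day 16. Of the 51, 35 were called as higher by the edgeR test (adjusted p under 0.05) and 0 as lower, where 1.85% of all transcripts tested were called as higher and 2.11% as lower. In 30 of the 51 the lowest day 16 heifer lay above the highest day 13 heifer, a separation found in 2.18% of the 13646 transcripts. In 29 the pregnant day 16 heifers lay above all 15 other heifers, which held for 0.689% of the 13646. These counts were 31 and 30 without heifer 12, and 34 and 33 without heifer 19. Because the pregnant day 16 heifers had to be high for a transcript to be chosen, these shares are no independent support. The count was 41 without pregnant day 13 heifer 14, 33 without heifer 12 and 35 without heifer 19.

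Member 8 had the greatest pregnant part. It had 38.0 CPM in heifer 11, 36.5 in heifer 14, 39.9 in heifer 2, 37.0 in heifer 20 and 27.4 in heifer 9 on day 13, and 206 CPM in heifer 1, 187 in heifer 12, 96.1 in heifer 19, 115 in heifer 4 and 153 in heifer 6 on day 16. The lowest of the later values was more than any of the earlier ones, and heifer 14 was not high for this transcript. Its mean L was 2.01 higher on day 16 (edgeR log2 fold change 2.09, SE 0.20). The fold change was 2.009 without heifer 12 and 2.23 without heifer 19. In cyclic heifers it had means of 43.4 ± 6.77 CPM (SD, n = 5) on day 13 and 37.5 ± 9.13 (n = 5) on day 16.

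In cyclic heifers the change was smaller. Mean L was lower on day 16 in 42 and higher in 9 of the 51 members, with a median of -0.20 (range -1.18 to 0.25), where the median over the 13646 transcripts was 0.01. By the fitted edgeR fold change, 47 were lower and 4 higher. No member passed the edgeR test in either direction, where 1.24% of all transcripts tested were called as lower and 0.479% as higher. At an unadjusted edgeR p under 0.05, 9 members were lower and 0 higher, where 2243 of the 14826 transcripts tested had such a p in either direction. DESeq2 called 2 members as lower, and over all transcripts it called 284 as lower and 149 as higher. The highest day 16 heifer lay below the lowest day 13 heifer in 2 members (17 and 29), where 2.11% of the 13646 transcripts separated in this way. The absolute change in L was under 0.5 in 47 members. The lowest cyclic day 16 heifer lay above the highest cyclic day 13 heifer in 0 members, against 1.64% of the 13646 transcripts. Means were thus lower on day 16 in most members, and the change passed the edgeR test in none. Because the cyclic day 16 heifers had to be low for a transcript to be chosen, these values describe the members and are no independent support.

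The cyclic part depended on which heifers entered. Cyclic day 13 heifer 18 was the highest of its group in 24 members and heifer 10 the lowest in 23. The median change in L was -0.10 without heifer 18, with 36 members lower, and -0.29 without heifer 10, with 48 lower. It was also -0.29 without cyclic day 16 heifer 7, with 45 lower, and it was -0.20 without heifer 5. The names of the deposited tables carry 1 of 4 six-digit codes, whose meaning is not given in the sources used here and which are written as letters A to D. Heifers 5, 13 and 18 carried code B, which no cyclic day 16 heifer carried. Within code A the median cyclic change was 0.001 (1 heifer on each day), within code C it was -0.03 (3 heifers on day 16, 1 on day 13), and with the code B heifers left out it was -0.05, with 23 members higher and 28 lower. The pregnant part was 1.22 within code A (2 heifers on each day), 0.97 within code B (1 on day 16, 2 on day 13) and 1.15 within code C (2 and 1). Since both cyclic values and the pregnant values of codes B and C set single heifers against others, and cyclic heifer 10 of code A was itself low, these values have no replicate check on at least 1 side. With the code as a term in the edgeR model, 0 members were called between days in cyclic heifers and 32 in pregnant heifers.

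The day 13 difference also varied between codes. Its median over members was 0.47 within code A (2 pregnant, 1 cyclic), -0.27 within code B (2 and 3) and 0.04 within code C (1 and 1). The day 16 difference was 1.72 within code A (2 pregnant, 1 cyclic) and 1.34 within code C (2 and 3). All 51 members were higher in pregnant heifers in both codes. The rule fixed this direction, since it set every pregnant day 16 heifer above every cyclic one. Code B held no cyclic and code D no pregnant day 16 heifer.

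**Figure D5:**
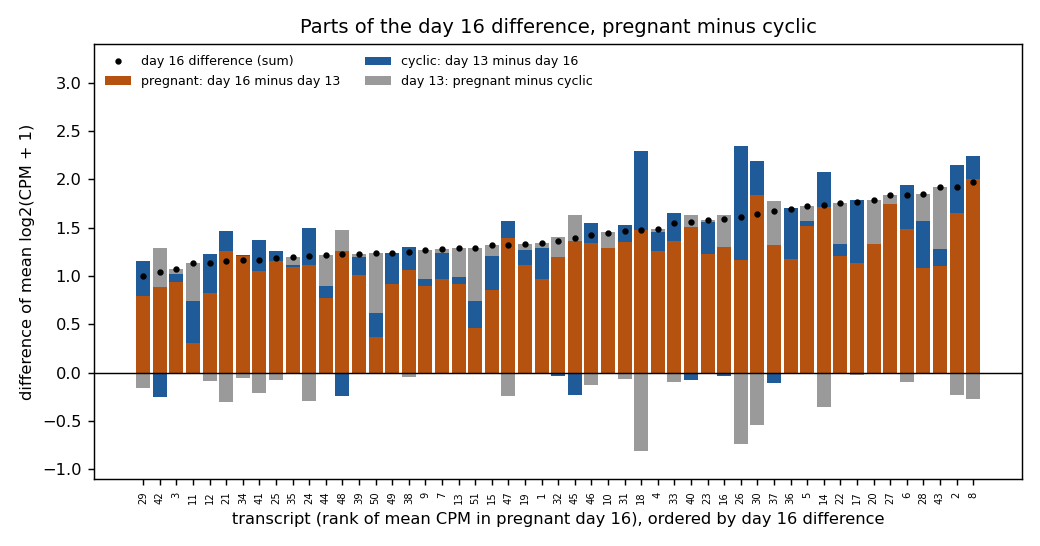
The 3 parts of the day 16 difference in mean L (vertical axis) for each of the 51 transcripts, ordered by that difference and labelled by rank (horizontal axis). Bars are stacked from 0, upward where a part adds and downward where it subtracts, and the black point is their sum. The pregnant part (orange) is the tallest in 47 transcripts.

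The 4 members with another greatest part did not all behave alike, but members 50 and 51 ran closely together. Member 50 was 1 to 1.5 times member 51 in every heifer. Member 11 had means of 82.9 ± 32.5 CPM (SD, n = 5) in cyclic and 103.7 ± 16.9 (n = 5) in pregnant heifers on day 13, and 58.0 ± 7.56 (n = 5) in cyclic and 128.2 ± 15.7 (n = 5) in pregnant heifers on day 16, so that 27.5% of its difference lay in the pregnant part, 38.3% in the cyclic and 34.2% in the day 13 part. Its pregnant day 13 heifers, at 76.1 to 119 CPM, overlapped the pregnant day 16 heifers, at 111 to 145 CPM. Member 26, described above, divided almost evenly between a pregnant part of 1.17 and a cyclic part of 1.18, less a day 13 difference of -0.73.

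Members 50 and 51 were the least abundant in pregnant day 16 heifers. Member 50 had 6.47 CPM in pregnant day 13 heifer 11, 9.70 in heifer 14, 9.54 in heifer 2, 4.58 in heifer 20 and 8.24 in heifer 9, and 3.93 CPM in cyclic day 13 heifer 10, 4.54 in heifer 13, 2.61 in heifer 18, 5.13 in heifer 5 and 7.49 in heifer 8. Its day 13 groups overlapped, and the difference (edgeR log2 fold change 0.73, SE 0.30) had an adjusted p of 0.727. Member 51 had 4.85, 8.15, 6.56, 4.58 and 6.91 CPM in the same pregnant day 13 heifers, in that order, and its parts were 0.46, 0.28 and 0.54 in L.

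In the opposite direction, member 18 was lower in pregnant than in cyclic heifers on day 13 and higher on day 16. Its day 13 values were 34.8 CPM in pregnant heifer 11, 27.5 in heifer 14, 24.4 in heifer 2, 31.2 in heifer 20 and 20.99 in heifer 9, against 31.1 CPM in cyclic heifer 10, 59.3 in heifer 13, 51.8 in heifer 18, 45.4 in heifer 5 and 63.7 in heifer 8. The groups overlapped through cyclic heifer 10 alone, and the difference did not pass the adjustment (edgeR log2 fold change -0.84, SE 0.24, unadjusted p = 0.00225, adjusted p = 0.727). Its pregnant part of 1.48 nearly equalled its day 16 difference, since a cyclic part of 0.81 and a day 13 part of -0.81 offset each other.

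The pregnant day 16 heifers differed in their level of the members. Heifer 1 was the highest of the 5 in 32 members, heifer 6 in 11 and heifer 12 in 7, while heifer 19 was the lowest in 27 and heifer 4 in 18. The mean L over the 51 members was 6.19 in heifer 1, 5.94 in heifer 6, 5.91 in heifer 12, 5.53 in heifer 4 and 5.47 in heifer 19. The full order of these means held in 7 of the 51 members, and heifers 1, 6 and 12 all lay above heifers 4 and 19 in 34. Member 3 was among those with another order, with 347 CPM in heifer 1, 363 in heifer 12, 387 in heifer 19, 299 in heifer 4 and 524 in heifer 6. The SD of L within a group had a median over members of 0.38 in pregnant and 0.31 in cyclic heifers on day 16, and 0.43 and 0.44 on day 13. Over the 13646 transcripts the same medians were 0.27, 0.25, 0.31 and 0.27. Members 28 and 14 varied most among pregnant day 13 heifers (SD of L 1.19 and 1.15). Member 28 had 64.0 CPM in heifer 14 and 39.3 in heifer 9, against 9.71 in heifer 11, 8.94 in heifer 2 and 17.1 in heifer 20.

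Some members ran closely together. How the counting shared reads between transcripts of a gene or between similar genes is not given in the sources used here, and its part in these pairs was not tested. Member 9 was 1.11 to 1.25 times member 13 in every one of the 20 heifers, while member 9 itself ran from 28.9 to 172 CPM. Member 31 was 0.929 to 1.14 times member 33, and member 38 was 1.07 to 1.37 times member 39. These were the 3 pairs of 1275 with the smallest SD of the difference in L (0.05, 0.07 and 0.11), and they were singled out after their values were seen. In members 9 and 13, pregnant day 13 heifer 14 was the only day 13 heifer to reach the day 16 levels of pregnancy. It had 172 and 147 CPM, against 99.8 to 163 and 82.0 to 146 CPM in the pregnant day 16 heifers. The next highest day 13 heifer, cyclic heifer 18, had 93.5 and 77.5 CPM. The pregnant groups of both days overlapped in 21 of the 51 members, so this overlap does not set the pair apart.

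The 57 transcripts whose day 16 difference was 2 or more, chosen in other respects by the same rule, are set beside the 51. Their median pregnant part was 2.35 in L against 1.18, their median cyclic part 0.77 against 0.20 and their median day 13 part 0.02 against 0.04. The cyclic part made up a median of 24.7% of the difference in the 57 and 14.4% in the 51. The cyclic mean was lower on day 16 in all 57, and in 42 of the 51. On day 16 their median level was 151.5 CPM with and 13.0 CPM without a pregnancy, against 58.6 and 19.9 CPM. Whether the effect of pregnancy differed between the days was tested for each transcript: 19 of the 51 members were called as more positive on day 16 by edgeR, where 0.472% of all transcripts tested were called in that direction and 0.00674% in the other. That test contains the day 16 contrast that chose the members. The count was 16 without heifer 12 and 23 without heifer 19. The difference between both sets was not tested, since transcripts are not replicates and the size of the day 16 difference separated the sets.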

How the data were processed

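RNA was measured in 21 single-read Illumina libraries of endometrium from 20 heifers, per the labels' protocols. Each deposited table gave raw counts by Ensembl transcript identifier and carried no header. The submitters' processing notes name CASAVA without a version or role. Not given in the sources used here: aligner, counting program, strand setting, annotation and genome build. Library 2 labelled heifer 12 was left out.

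CPM was 1000000 times the count over the file total. Counts were also fitted in edgeR 4.0.16 (R 4.3.3) after filterByExpr (minimum count 10, minimum total 15), with TMM factors, 4 group means over 20 heifers, robust quasi-likelihood tests and Benjamini-Hochberg adjustment, called at an adjusted p under 0.05. Dividing the log2 fold change by the root of F gave the SE, from which the 95% interval followed. The scripts were tested on simulated data. Alternatives were DESeq2 1.42.0, its size factors, no filter, the six-digit code as a term, other uses of heifer 12's libraries, another pseudocount (0.5) or minimum (1 CPM), TMM-scaled CPM and leaving out heifers. Without gene symbols, the gene lists and cell type markers were not tested, and 2 identifiers were named: the member highest in pregnant day 16 heifers and the one with the largest difference between days in cyclic heifers. The members, lists and tests were chosen with earlier results of these data known. Heifers were separate animals; floors cover counting error only, since the labels name no molecular identifiers.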

Additional observations from a re-analysis of the deposited data

Results flagged for a closer look

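A value far from the other 4 of its group was looked for in 16 groups of 5 heifers (the mean L and the share of counts of the 51 transcripts, and the CPM of both named identifiers, in each group), where chance gives about 1 in 20. Pregnant day 13 heifer 14 stood apart in both summaries, which are not separate findings. Its gap to the next heifer, divided by the range of the group, was 0.8110 for the share of counts. For the mean L it was 0.7109, only just above the limit of 0.71. Its mean L over the 51 was 5.08, against 4.41 to 4.61 in the other 4, and its share of counts was 0.329%, against 0.180% to 0.208%. Its total count was 2578050, within the group's range of 1677742 to 3764342.

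For 19 of the 51 members, pregnancy had a different effect on each day by the edgeR test of the difference (adjusted p under 0.05), each more positive on day 16, where 0.472% of all transcripts tested were called in this direction. That difference contains the day 16 effect that chose the members, so its p-values are no independent support. It was 1.30 on the log2 scale for ENSBTAT00000028598 (SE 0.22, edgeR adjusted p = 0.00187) and 2.23 for ENSBTAT00000018901 (SE 0.42, edgeR adjusted p = 0.00891).

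Library 2 labelled heifer 12 entered no main comparison, only the alternatives on the use of that heifer's libraries. It lay above the highest cyclic day 16 heifer in 50 of the 51 members. The rule required library 1 of heifer 12 and the library labelled heifer 19 to lie there in all 51. The count is thus no independent support. All 5 pregnant day 16 heifers lay there in 1.49% of the 13646 transcripts, and the share for library 2 alone was not computed. The 51 members took 0.398% of the counts of library 2, against 0.548% in library 1 of that heifer and 0.401% in the library labelled heifer 19. Since it was the library closest to that of heifer 19, it is not counted as a further heifer.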

How the results depend on the processing

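The number of transcripts that met the rule was 51 to 64 under 5 other settings and 51 to 63 when each day 16 heifer was left out, and 46 to 51 of the 51 were kept. It was 64 with a minimum of 1 CPM. On day 13 no member was called under any of 6 other settings or when any day 13 heifer was left out. Between days in cyclic heifers the count of members called was 0 in edgeR, 2 with DESeq2, 1 with both libraries of heifer 12 summed, and 0 to 2 when a heifer was left out. Leaving out cyclic heifer 10 of day 13 gave 2, and leaving out heifer 17 or 7 of cyclic day 16 gave 1. In pregnant heifers it was 32 to 37 under 6 other settings and 30 to 41 when a heifer was left out. For pregnancy on day 16 it was 37 to 51 and 37 to 45. The median pregnant part was 1.16 to 1.203 under 4 settings and 1.07 to 1.27 when a heifer was left out. The median cyclic change was -0.21 to -0.05 and -0.29 to -0.10. The median day 13 difference was 0.04 to 0.27 and -0.04 to 0.12; it was 0.27 with the code B heifers left out, a setting chosen after seeing the data. It was -0.03 without pregnant heifer 14, -0.04 without cyclic heifer 10 and -0.01 without cyclic heifer 8. The day 13 log2 fold change of ENSBTAT00000028598 was -0.077 without pregnant heifer 14, which was the lowest value when a heifer was left out (-0.077 to 0.169), and 0.03 to 0.09 under 6 other settings. The causes were not tested. No paired analysis was possible because no heifer number is shared between groups. With 5 heifers per group, the 95% interval of the day 13 difference stayed under a 2-fold increase in 38 of 51 members.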
